A study of Mus musculus with 4 samples.

Results

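The genes described here encode 10 surface receptors of natural killer (NK) cells, chosen by name from the 31053 genes in the files: Klrb1c, Klrc1, Klrc2, Klrd1, Klrk1, Klre1, Klri2, Klrg1, Ncr1 and Cd226. They were measured as unique molecular identifiers (UMIs, each standing for 1 captured RNA molecule) per 10,000 UMIs of a cell type, in 4 droplet libraries of living CD45+ cells sorted from mouse skin. The 2 control libraries came from skin of uninoculated C57 mice. The 2 tumor libraries came from skin tumors that grew after subcutaneous injection of the line 2323 into C57BL/6 mice. That line was set up from 1 tumor graft of the ktiKPP model, which carries K14rtTA, tetOCre and P53-/- among its alleles and in which a keratin 14 promoter drives the transactivator rtTA and Cre is expressed from tetO under doxycycline, so every tumor descends from 1 line. The mice were aged 8 to 10 weeks at injection and were sampled 2 weeks later, and no age of the control mice was found in the sources used here. The 4 libraries stand for 2 tumors and 2 control skins, so the p-values measure the spread between 2 skins or tumors a group.

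Lymphocytes answer to the balance of activating and inhibitory receptors. Klrd1 (CD94) pairs with Klrc1 (NKG2A), which inhibits, or with Klrc2 (NKG2C), which activates, and both pairs read the nonclassical MHC molecule Qa-1, encoded by H2-T23. Klrk1 (NKG2D) binds stress-induced ligands of the Raet1, H60 and Ulbp1 families and signals through the adaptors Hcst (DAP10) and Tyrobp (DAP12). Klre1 and Klri2 are lectin-like receptors that form a heterodimer, Klrg1 inhibits on binding cadherins, Klrb1c (NK1.1) and Ncr1 (NKp46) are activating receptors that mark mouse NK cells and group 1 innate lymphoid cells, and Cd226 (DNAM-1) activates on binding Pvr and Nectin2. Dendritic epidermal T cells (DETC), the gamma-delta T cells of mouse epidermis, are also known to carry NKG2 receptors.

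Of the 10 genes, 8 lie on mouse chromosome 6 (GRCm38, GENCODE vM21 annotation), and 6 of these, Klre1, Klrd1, Klrk1, Klrc2, Klrc1 and Klri2, follow each other between 129577905 and 129740484. Klrc1 (ENSMUSG00000030167, chr6:129666015-129678973, minus strand) and Klre1 (ENSMUSG00000050241, chr6:129577905-129585827, plus strand) were the members of this cluster that differed most between tumor and control NK cells, in opposite directions. Their upstream windows are shown with those of Klrk1 (ENSMUSG00000030149, chr6:129610323-129623864, minus strand), which lies between them and did not pass the test in NK cells, and of Ncr1 (ENSMUSG00000062524, chr7:4337724-4345164, plus strand), a gene on another chromosome found in NK cells. Each window is the 250 bases before the RefSeq start (GRCm38.p6), written 5′ to 3′ on the strand of the gene, and capitals mark the letters of the RUNX motif on either strand. The window of Klre1 lies before its RefSeq start but inside the gene span given above.
Klrc1, chr6:129678974-129679223, minus strand: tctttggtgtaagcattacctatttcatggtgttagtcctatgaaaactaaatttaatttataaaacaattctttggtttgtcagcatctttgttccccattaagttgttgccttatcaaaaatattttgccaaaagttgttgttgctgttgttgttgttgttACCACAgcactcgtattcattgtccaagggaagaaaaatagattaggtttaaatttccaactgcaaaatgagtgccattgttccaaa
Klre1, chr6:129577963-129578212, plus strand: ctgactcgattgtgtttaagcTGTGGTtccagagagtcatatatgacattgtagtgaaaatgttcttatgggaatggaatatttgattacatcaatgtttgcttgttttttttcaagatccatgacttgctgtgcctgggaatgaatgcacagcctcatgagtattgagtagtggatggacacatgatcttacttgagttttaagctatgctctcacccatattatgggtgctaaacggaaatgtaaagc
Klrk1, chr6:129623865-129624114, minus strand: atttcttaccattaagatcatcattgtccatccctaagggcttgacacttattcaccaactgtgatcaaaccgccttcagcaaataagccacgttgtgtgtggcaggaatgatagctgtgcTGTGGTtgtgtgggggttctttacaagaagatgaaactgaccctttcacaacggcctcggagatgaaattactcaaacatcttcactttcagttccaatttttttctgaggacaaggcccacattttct
Ncr1, chr7:4337465-4337714, plus strand: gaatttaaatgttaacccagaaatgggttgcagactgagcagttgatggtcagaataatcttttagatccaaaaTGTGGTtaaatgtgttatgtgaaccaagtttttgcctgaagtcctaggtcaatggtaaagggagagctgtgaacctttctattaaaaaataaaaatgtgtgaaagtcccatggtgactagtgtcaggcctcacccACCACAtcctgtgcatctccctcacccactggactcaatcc
The motif searched was TGTGGT or its reverse complement ACCACA, and it was present in all 6 windows that could be matched to a member (these 4, Klrb1c and Klrc2), against 14.2% of 27025 promoters. The window of Klrb1c also lay inside its gene span, and that of Klrc2 did in part. Klre1, Ncr1 and Klrc2 each had 2 windows, of which 1 was used. The T-box motif GGTGTGA (reverse complement TCACACC) was in none of the 6 and in 3.31% of all promoters. The AP-1 motif TGANTCA was in none of the 6 and in 6.87% of all. These are matches of letters, which do not overlap each other, and no binding was measured.

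Klrc1 and Klrc2 are near-identical in part. Of the 50-base stretches in the last 500 bases of Klrc1 transcripts, where 3′ reads fall, 39.5% also occurred in Klrc2, and 15.8% of those of Klrc2 occurred in Klrc1. Reads from such stretches cannot be placed on 1 gene, so the split between Klrc1 and Klrc2 is uncertain. For Klrb1c the shared part was 6.71%, mostly with Klrb1a, and its exons overlap those of Gm44511 on the same strand. Klrd1, Klrk1, Klre1, Klri2 and Klrg1 shared none with another Klr gene.

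Cells were assigned to types by marker genes, with none of the 10 receptors among them. The libraries held between 2258 and 5176 cells and between 34893543 and 73904272 UMIs, and 3047 lymphocytes of 7 types were gated. NK-gated cells (no CD3 or Trac, and at least 2 of Eomes, Tbx21, Gzma, Prf1, Itga2, Txk and Nkg7) numbered 88 and 59 in the control libraries and 144 and 68 in the tumor libraries. DETC numbered 597 and 648 in control skins but 14 and 22 in tumors, and the 14 of tumor 1 went against their name: Trdc stood at 6.91 UMIs per 10,000, against 22.6 and 22.8 in control skins, and Tyrobp, which was 0.35 and 0.38 there, reached 5.00. Means over DETC are therefore given without that gate (n = 3 libraries) unless it is named, a choice made after seeing the data. Dermal gamma-delta T cells had under 10 cells in each tumor library, and only their control values are used. Up to 5 cell barcodes were shared by a pair of libraries. In bulk sums over a cell type, fewer cells carrying a receptor and less RNA in each cannot be told apart. Shares of cells are given apart from the sums below.

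In these gated types the 10 genes fell into a few patterns. On the mean of the libraries that held 10 or more cells of a type, 8 of the 10 had their highest level in NK cells, and the exceptions were Klrg1 and Cd226. With the mixed DETC gate of tumor 1 kept in, 7 did, since Klrd1 then averaged 2.57 in DETC. The order was not the same in both groups: in control libraries alone Klrd1 was slightly higher in DETC (2.11 and 2.19 UMIs per 10,000) than in NK cells (2.08 in each), and in tumors alone Klrc1 was higher in CD8 T cells (2.15 and 3.96) than in NK cells (1.67 and 2.12). Klrb1c, Ncr1 and Klri2 came close to being NK genes alone. Ncr1 was between 0.719 and 1.66 UMIs per 10,000 in the 4 NK sums and at most 0.441 in any other type with at least 10 cells, and that highest outside value was the mixed DETC gate of tumor 1. Klri2 was between 0.928 and 1.90 in NK cells, and the highest values elsewhere were 0.523 in a tumor ILC2 sum and 0.505 in a tumor CD8 T sum, so no other range overlapped that of NK cells. Klrb1c was between 0.299 and 1.02 in NK cells, a range that overlapped that of DETC only because of the tumor 1 gate (0.808).

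**Figure D1:**
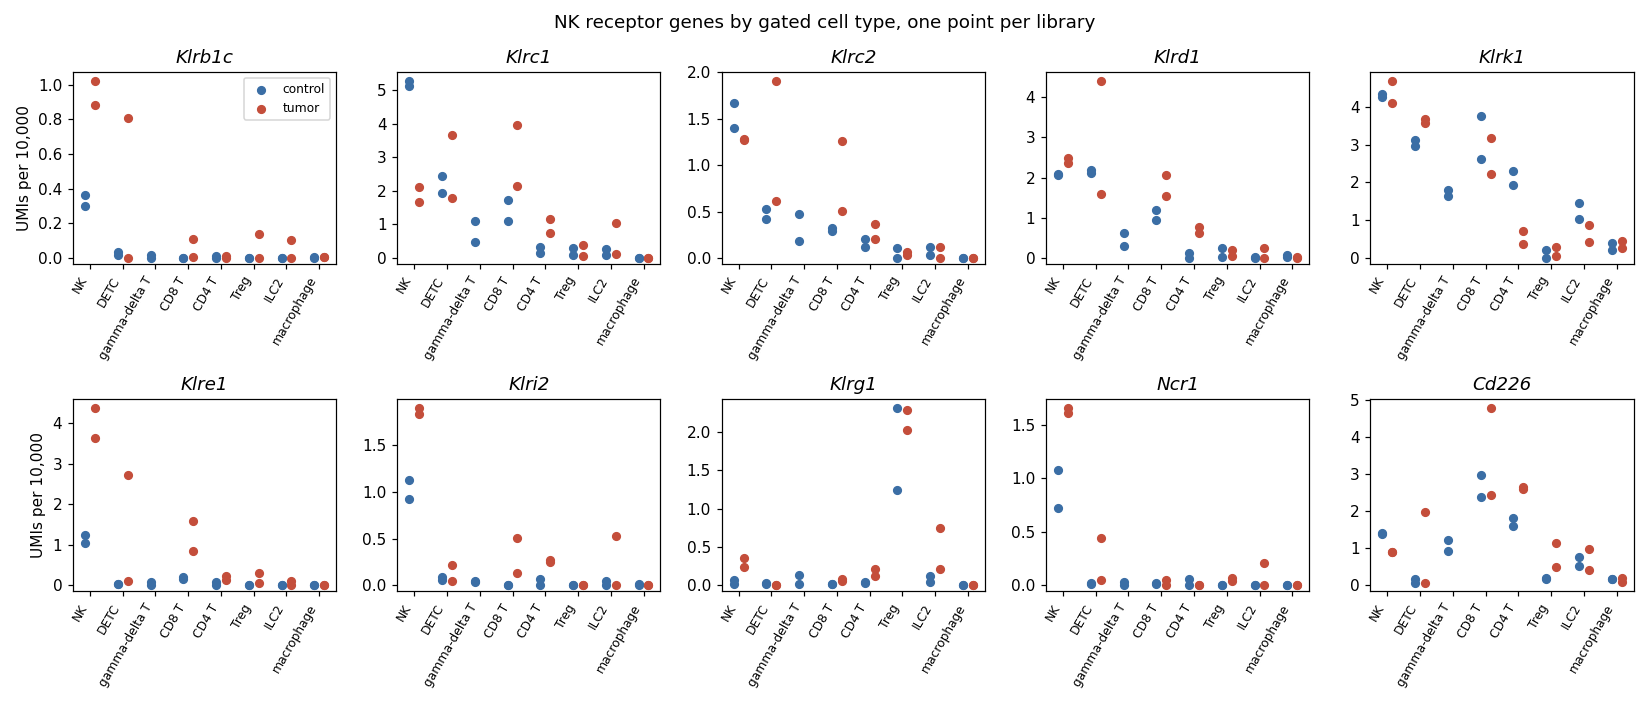
Level of each receptor gene in UMIs per 10,000 (y axis) by gated cell type (x axis), 1 point per library with at least 10 cells, control in blue and tumor in red. Klrg1 stands out in Treg, Cd226 in CD8 T and CD4 T cells, and Klrc1 falls from 5.12 and 5.28 in control NK cells to 1.67 and 2.12 in tumor NK cells.

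Klrk1 was the most widely shared member. Its mean was 4.35 ± 0.246 UMIs per 10,000 in NK cells (SD, n = 4 libraries), 3.22 ± 0.319 in DETC (n = 3), 2.94 ± 0.671 in CD8 T cells, 1.72 ± 0.129 in gamma-delta T cells (n = 2), 1.33 ± 0.925 in CD4 T cells, 0.942 ± 0.430 in ILC2 and 0.136 ± 0.137 in Treg. The range of NK cells lay above that of DETC, the ranges of DETC and CD8 T cells overlapped, and those from gamma-delta T cells down to ILC2 overlapped with their neighbours. Macrophages should lack most of these receptors and serve as the background. Their Klrk1 stood at 0.412, 0.223, 0.442 and 0.273 in control 1, control 2, tumor 1 and tumor 2, so Treg were at or under the macrophage level. On average Klrk1 was 0.282 in mast cells (a gate with no limit on CD3), 0.0968 in control Langerhans cells and 0.0357 in neutrophils. Macrophages were thus not the lowest background for Klrk1, and Treg were above the means of the last 2 types.

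The NKG2 and CD94 genes had nearly the same order of types. Klrc1 averaged 3.55 ± 1.92 in NK cells, 2.24 ± 1.23 in CD8 T cells and 2.06 ± 0.337 in DETC (n = 3), and these 3 ranges overlapped. Klrc2 followed the same order at 1.41 ± 0.188, 0.598 ± 0.453 and 0.520 ± 0.0976, and the lowest NK value, 1.28, was just above the highest CD8 T value, 1.26. Klrd1 averaged 2.25 ± 0.209 in NK cells and 1.96 ± 0.330 in DETC (n = 3), with overlapping ranges, and 1.44 ± 0.486 in CD8 T cells, whose highest value of 2.07 was next to the lowest NK value of 2.08. In macrophages Klrc1 and Klrc2 stayed at or below 0.011 and Klrd1 at or below 0.067. Control mast cells, however, held Klrc1 at 0.691 and 0.373 and Klrd1 at 0.478 and 0.479, beside 0 in tumor mast cells, and the control libraries are those with over 500 DETC each. The mast gate set no limit on CD3. Control mast cells also held Trdc at 6.75 and 3.19 and Cd3g at 6.41 and 2.82. Trdc was 0.179 and 0.0885 in control neutrophils, which were also gated without that limit. Whether free RNA of DETC or the make-up of the mast gate had a part in these values was not tested.

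At the level of cells, Klrd1 was found in 78.3% (exact 95% interval 65.8 to 87.9), 70.8% (55.9 to 83.0), 63.4% (52.0 to 73.8) and 75.0% (60.4 to 86.4) of the NK cells with a UMI of Klrc1 or Klrc2 in control 1, control 2, tumor 1 and tumor 2, beside 61.4%, 62.7%, 54.9% and 66.2% of all NK cells. In CD8 T cells the shares were 67.7% and 75.0% in control skins and 75.6% and 76.3% in tumors, beside 40.8%, 46.7%, 64.6% and 67.4% of all CD8 T cells. In control DETC they were 79.6% and 82.9%, next to 78.9% and 81.8% of all DETC. Fewer cells stood behind the other types. In gamma-delta T cells of control skins 10 of 18 and 4 of 11 cells with Klrc1 or Klrc2 had Klrd1 (35.6% and 18.5% of all), and in CD4 T cells 1 of 6 and 0 of 4 in control skins and 13 of 22 and 12 of 28 in tumors (5.56%, 0%, 16.9% and 23.3% of all). These intervals cover counting error only, and a deeper cell is more likely to show both genes.

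After each cell was thinned to 1000 UMIs, 8 of the 10 genes were found in the largest share of cells in the NK gate, and 7 with the mixed DETC gate kept in. Klrk1 was found in 34.4 ± 4.44% of NK cells, 23.2 ± 5.44% of CD8 T cells and 22.4 ± 3.69% of DETC (n = 3), beside 2.42 ± 1.93% of macrophages (SD, n = 4 libraries). Ncr1 was found in 9.36 ± 3.68% and Klrb1c in 6.33 ± 1.81% of NK cells, beside 0% and 0.0903 ± 0.181% of macrophages. By group, Klrc1 was found in 33.1 ± 3.47% of control and 16.9 ± 7.25% of tumor NK cells (SD, n = 2 libraries each). Klre1 was found in 12.7 ± 3.55% and 21.7 ± 3.67%, and Klrb1c in 4.82 ± 0.381% and 7.84 ± 0.693%. Such shares also depend on the level in each cell. At full depth, the median was 6904 to 12016 UMIs in NK cells and 8710 to 15806 in macrophages. Ncr1 was then found in 46.1 ± 5.90% of NK cells and in 0.124 ± 0.194% of macrophages.

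Klrg1 and Cd226 had other homes. Klrg1, an inhibitory receptor of differentiated lymphocytes, was 2.31 and 1.24 UMIs per 10,000 in control Treg and 2.02 and 2.29 in tumor Treg. The next type, ILC2, lay between 0.0489 and 0.742, and no other type reached the Treg range. The groups overlapped in Treg, and the fitted log2 change of 0.30 ± 0.31 (SE) did not pass (edgeR, adjusted p = 0.705). Thinned, Klrg1 was found in 14.8% and 15.2% of control Treg and in 14.9% and 16.3% of tumor Treg, beside at most 0.137% of macrophages. Cd226 averaged 3.14 ± 1.12 in CD8 T cells, 2.16 ± 0.534 in CD4 T cells and 1.14 ± 0.285 in NK cells (SD, n = 4). The ranges of CD8 and CD4 T cells overlapped, and both lay above that of NK cells.

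Over the 26 sums of type and library, the genes most like each member were named by Pearson correlation of log2(UMIs per 10,000 + 0.1) among 7565 genes. The mixed DETC gate of tumor 1 was among these sums. Cell type, library and depth are shared by these points, so the values are a description. Klrb1c and Ncr1 were both most like Klra8 (r = 0.96 and 0.95), the Ly49H receptor. Klre1 was most like Eomes (r = 0.97), a T-box factor of NK cells that was part of the NK gate. In the mixed DETC gate Eomes was 1.98 and Klre1 2.72, beside means of 0.0153 and 0.0415 in control DETC. Klrc1 was most like Klrc2 (r = 0.87), Klrc2 like Klrd1 (r = 0.90) and Klrd1 like Gnptab (r = 0.90). For Klrk1, Klri2, Klrg1 and Cd226 the leading genes were Atp8b4 (r = 0.89), Sft2d2 (r = 0.91), Arl5a (r = 0.91) and Eif3h (r = 0.86).

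The comparison of tumors with control skins asked whether infiltrating lymphocytes carried other receptors than those of normal skin. In NK cells, Klrc1 fell and Klre1 and Klrb1c rose: 3 of the 10 members, all of which could be tested, were called at an adjusted p under 0.05 (edgeR quasi-likelihood test), beside 6.32% of the 7407 genes tested. Klrc1, the inhibitory NKG2A chain, was 5.12 and 5.28 UMIs per 10,000 in control NK cells and 1.67 and 2.12 in tumor NK cells. The groups did not overlap, and the tumor level was 2.88-fold lower (log2 change -1.52 ± 0.20 SE, adjusted p = 0.00577). Klre1 was 1.05 and 1.23 in control and 4.37 and 3.64 in tumor NK cells. Both tumor libraries were above both controls, by 3.38-fold (log2 change 1.76 ± 0.21, adjusted p = 0.00420). Klrb1c, the NK1.1 gene, was 0.299 and 0.366 in control and 1.02 and 0.885 in tumor NK cells, again without overlap, a 2.77-fold rise (log2 change 1.47 ± 0.27, adjusted p = 0.0192). All 3 calls were lost without control replicate 1 and without control replicate 2, and each such fit left 1 control library.

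The other NK members did not pass. Klri2, the partner of Klre1, was 0.928 and 1.13 in control and 1.83 and 1.90 in tumor NK cells (log2 change 0.80 ± 0.20, adjusted p = 0.0558). Klrg1 was 0.0747 and 0.0136 in control and 0.235 and 0.351 in tumor NK cells (adjusted p = 0.0580). Ncr1 was 1.08 and 0.719 against 1.61 and 1.66 (adjusted p = 0.118), and Cd226 1.38 and 1.40 against 0.886 and 0.899 (adjusted p = 0.0857). For these 4 the groups did not overlap, which was also true of 50.6% of all genes tested in NK cells, so non-overlap of 2 against 2 libraries was common. Klrk1, at 4.27, 4.34, 4.69 and 4.10 in control 1, control 2, tumor 1 and tumor 2, had a log2 change of -0.03 ± 0.19, and Klrd1 and Klrc2 had changes of 0.16 ± 0.18 and -0.34 ± 0.20. The median over the 10 members was 0.47, beside 0.03 over all genes tested in NK cells. Klrg1 is among the 10 and passed the filter on low counts only through the tumor libraries. The median is therefore not counted as support.

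Marker genes of other cell types also differed between the groups in the NK gate. Of the NK-gated cells, 83.0% (exact 95% interval 73.4 to 90.1) and 74.6% (61.6 to 85.0) in control skins had a UMI of Itga1, Cxcr6 or Il7r, against 19.4% (13.3 to 26.9) and 19.1% (10.6 to 30.5) in tumors. These genes are used here as markers of tissue-resident ILC1 but are not theirs alone. In control libraries Cxcr6 averaged 2.13 in NK-gated cells, beside 13.2 in ILC2 and 11.4 in CD4 T cells. Il7r averaged 1.89, beside 8.25 in ILC2 and 7.06 in gamma-delta T cells, whereas Itga1 was higher in NK-gated cells (1.05) than in CD8 T cells (0.547). Whether the cells with a marker were ILC1 was not tested. The 6 ILC1 markers together stood at 11.4 and 7.77 UMIs per 10,000 in control and 2.66 and 1.57 in tumor NK cells, and 4 of the 6 (Itga1, Cxcr6, Il7r and Tnfsf10) were called lower. In CD8 T cells, CD4 T cells and ILC2 2 of them were called lower each, beside 9.35%, 9.95% and 11.3% of all genes. In CD4 T cells and ILC2 1 was called higher each. Cxcr6 averaged 13.2 in control and 1.53 in tumor ILC2, and 11.4 and 3.80 in CD4 T cells. Whether the mix of cells in the NK gate differed was not tested. The 5 markers of circulating NK cells used here stood at 1.26 and 2.14 in control and 4.65 and 4.83 in tumor NK cells, and Itga2 was called higher of the 3 tested. Among the 5, Eomes and Itga2 were also part of the NK gate, so their levels were not independent of the gating. S1pr5, a defining gene of circulating NK cells, stayed at or below 0.0421 in every NK sum. The 5 macrophage markers together stood at 0.341 and 0.855 in control and 1.85 and 1.49 in tumor NK cells, with none of 3 tested called and 2 at an unadjusted p under 0.05, and macrophages held Klre1 at or below 0.00742 and Klrb1c at or below 0.00472. The median depth of tumor NK cells was also lower, at 6904 and 7852 UMIs, against 10888 and 12016 in control skins, and a deeper cell is more likely to show a marker UMI.

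**Figure D2:**
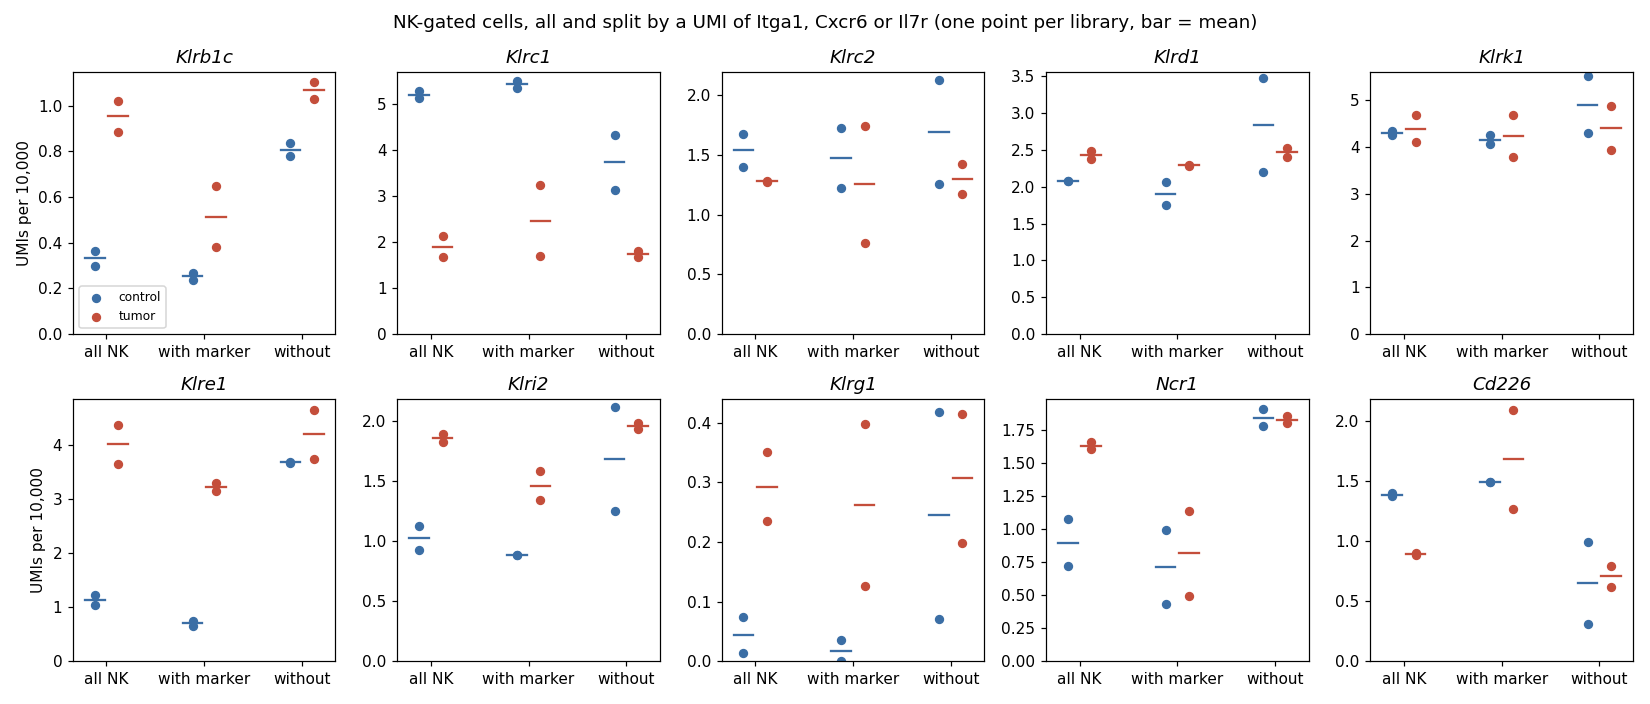
Level of each receptor gene in UMIs per 10,000 (y axis) in all NK-gated cells, in those with a UMI of Itga1, Cxcr6 or Il7r, and in those with none (x axis), 1 point per library and a bar at the mean of 2. Ncr1 in cells with no marker was 1.78 and 1.91 in control and 1.86 and 1.80 in tumor libraries, whereas Klrc1 was lower in both tumor libraries in each column.

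Split by these markers, the values of the receptors are given side by side, and no test compared the receptors with each other. The split was chosen after the values were seen, and each control library had only 15 cells without a marker, against 116 and 55 in tumors. In these cells edgeR called no member, beside 0.2% of 4992 genes (10 in place of 468). Klrc1 in cells without a marker was 3.14 and 4.32 in control and 1.67 and 1.80 in tumor libraries (log2 change -1.08, adjusted p = 0.211). In cells with a marker it was 5.34 and 5.50 in control and 1.69 and 3.23 in tumor libraries. Klrc1 was thus lower in both tumor libraries on either side of the split. Klre1 in cells without a marker was 3.66 and 3.68 in control and 4.64 and 3.74 in tumor libraries (log2 change 0.23, adjusted p = 0.810). In cells with a marker it was 0.748 and 0.654 in control, and 3.14 and 3.30 in tumor libraries, the latter from 28 and 13 cells. No test was fitted there. Within the split the gap in Klre1 was thus larger in marker-bearing cells, whose share of the gate also differed between the groups. Klrb1c in cells without a marker was 0.838 and 0.779 in control and 1.11 and 1.03 in tumor libraries (log2 change 0.45, adjusted p = 0.718), and the log2 changes of Ncr1 and Cd226 there were 0.02 ± 0.29 and 0.04 ± 0.51. In control cells with a marker Klrb1c was lower, at 0.238 and 0.268. Ncr1 was 0.998 and 0.436 in control cells with a marker, beside 1.78 and 1.91 in those without. Any part that the make-up of the gate has in the changes over all NK-gated cells was not tested beyond these values.

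Klrc2 did not pass the test in NK cells, in which Klrc1 fell, and Klrc1 made up less of the pair. Klrc1 gave 75.4% (exact 95% interval 71.8 to 78.7) and 79.1% (75.2 to 82.6) of the Klrc1 plus Klrc2 UMIs in control NK cells, and 56.7% (51.2 to 62.2) and 62.4% (56.0 to 68.5) in tumor NK cells. Both tumor intervals lay below both control intervals, a difference of -17.6 percentage points between the means of 77.2 ± 2.62 and 59.6 ± 3.99 (SD, n = 2 each). With 2 libraries a group the exact permutation test cannot go below p = 0.333. In CD8 T cells the control libraries gave 79.1% and 84.1% and the tumor libraries 80.7% and 75.9%, and these overlapped. In DETC the share was also lower in tumors, at 65.8% in the mixed gate of tumor 1 and 74.5% in tumor 2, against 82.3% and 82.2% in control skins. In CD4 T cells it was higher in tumors, at 77.8% and 76.0%, against 55.0% and 61.1% in control skins, from only 20 and 18 UMIs. The intervals cover counting error, and not the reads that could not be placed on 1 of the paralogs.

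**Figure D3:**
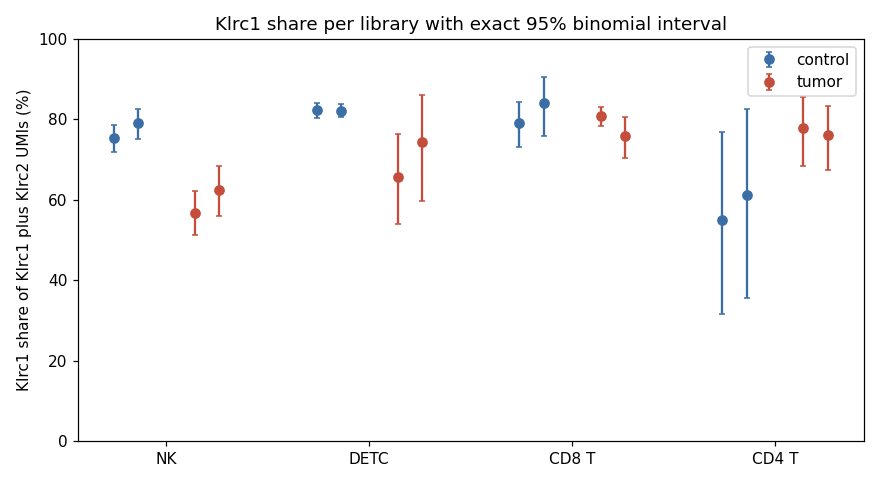
Klrc1 as a percent of Klrc1 plus Klrc2 UMIs (y axis) by cell type (x axis), 1 point per library with its exact 95% binomial interval, control in blue and tumor in red. The tumor NK libraries, at 56.7% and 62.4%, lie below the control NK libraries, at 75.4% and 79.1%, whereas CD8 T libraries overlap. Tumor DETC also lie below control DETC, and tumor CD4 T cells lie above control CD4 T cells.

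CD8 T cells from tumors carried more Klre1. Of the 7 members that could be tested (Klrb1c, Klrg1 and Ncr1 were filtered out as low), Klre1 and Klri2 were called higher and none lower, beside 9.35% of 8072 genes called in either direction. Klre1 was 0.196 and 0.154 UMIs per 10,000 in control and 0.847 and 1.59 in tumor CD8 T cells, a 5.84-fold rise without overlap (log2 change 2.55 ± 0.39, adjusted p = 0.00510). Klri2 had 0 UMIs in both control libraries and 59 and 28 UMIs in the tumor libraries, or 0.133 and 0.505 per 10,000. It passed the filter on low counts only through the tumor libraries, so its call is not counted as support, and its pooled tumor level was at least 12.2-fold higher than 3 counts over the control group (edgeR, adjusted p = 0.0199). It was left untested without cycling cells, which were 57.8% of the CD8 T cells of tumor 1 and between 20.0% and 28.3% elsewhere, and lost its call without control replicate 1 (adjusted p = 0.0842). The 5 macrophage markers moved in these cells too, from 0.738 and 0.732 in control to 1.35 and 3.64 in tumor CD8 T cells, with 1 of 5 called higher. Macrophages held Klre1 at or below 0.00742 and Klri2 at or below 0.0111.

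No NKG2 or CD94 gene passed in CD8 T cells. Klrc1 was 1.10 and 1.73 in control and 2.15 and 3.96 in tumor CD8 T cells (log2 change 0.99 ± 0.33, adjusted p = 0.0993). Klrd1 was 0.953 and 1.19 against 1.54 and 2.07 (adjusted p = 0.144), and Klrc2 0.290 and 0.327 against 0.512 and 1.26 (adjusted p = 0.0994). For these 3 the groups did not overlap, which was also true of 57% of all genes tested in CD8 T cells. Klrk1, at 2.61 and 3.76 against 2.22 and 3.17, overlapped (adjusted p = 0.428), as did Cd226, at 2.38 and 2.97 against 2.42 and 4.78. The median of the 7 was 0.99, also with Klri2 at its bound, beside 0.07 over all genes tested. Because Klri2 passed the filter on low counts only through the tumor libraries, this median is not counted as support. Eomes was called higher in the same cells (0.12 and 0.17 against 1.28 and 0.79), and Cxcr6 and Il7r were called lower.

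CD4 T cells changed in both directions. Klrd1, Klrc1 and Klri2 were called higher and Klrk1 lower, 4 of the 6 members tested, beside 9.95% of 7339 genes. Of these calls, only those of Klrc1 and Klrk1 are counted as support, for the reason given below. Klrk1, the NKG2D gene, was 1.92 and 2.30 UMIs per 10,000 in control and 0.725 and 0.376 in tumor CD4 T cells. Both tumor libraries were below both controls, a 3.88-fold fall (log2 change -1.96 ± 0.30, adjusted p = 0.00288), and the second tumor value was within the macrophage range of 0.223 to 0.442. Klrd1 was 0.115 and 0 in control, from 9 and 0 UMIs, and 0.763 and 0.626 in tumor CD4 T cells (log2 change 3.08 ± 0.57, adjusted p = 0.00704). Klrc1 was 0.140 and 0.320 against 0.734 and 1.15 (log2 change 2.13 ± 0.41, adjusted p = 0.00904). The NKG2A chain was thus higher in tumor CD4 T cells, whereas the call of its partner Klrd1 is set aside below. Klrd1 in CD4 T cells stayed below every CD8 T and NK value, whereas the highest Klrc1 value in CD4 T cells, 1.15, was above the lowest in CD8 T cells, 1.10. Klrd1 and Klri2 passed the filter on low counts only through the tumor libraries, so the calls of these genes are not counted as support.

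Klri2 in CD4 T cells rested on few molecules, 5 and 0 UMIs in control and 26 and 22 in tumor libraries (log2 change 2.48 ± 0.68, adjusted p = 0.0430), and lost its call in DESeq2 (adjusted p = 0.177) and without control replicate 2, tumor replicate 1 or tumor replicate 2 (adjusted p = 0.114, 0.0529 and 0.0885). Klrc1 lost its call without cycling cells (adjusted p = 0.0917) and without control replicate 1 (adjusted p = 0.0578). Klrc2 (adjusted p = 0.317) and Cd226 (1.81 and 1.60 against 2.64 and 2.59, adjusted p = 0.152) did not pass, and Klrb1c, Klre1, Klrg1 and Ncr1 were too low to test. Markers of other cells moved with these results: the 5 macrophage markers together stood at 0.421 and 1.25 in control and 1.96 and 2.92 in tumor CD4 T cells, and Trdc at 0.22 and 0.20 in control and 0 in both tumor libraries. Their part in the result was not tested.

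**Figure D4:**
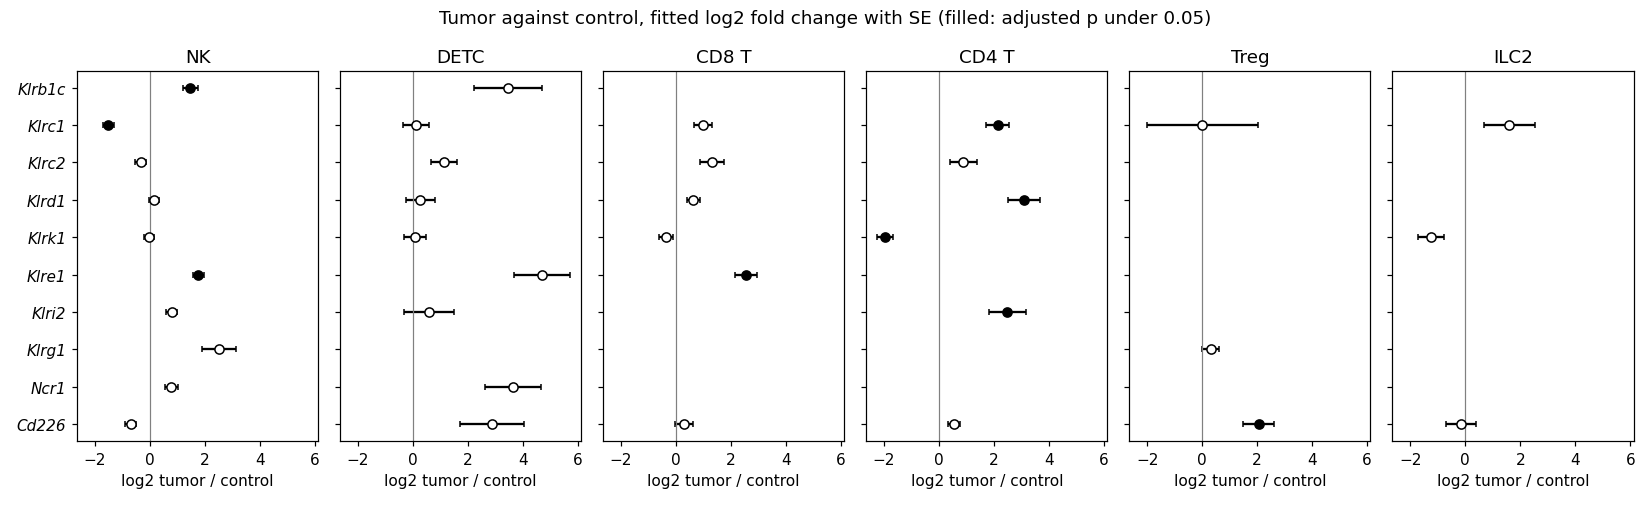
Fitted log2 fold change of tumor over control (x axis, points with SE bars) for each receptor gene that could be tested (y axis), 1 panel per cell type, with filled points for an adjusted p under 0.05. Klri2 in CD8 T cells is left out because both control libraries had 0 UMIs, and Klrc1 is the member called in opposite directions, -1.52 in NK cells and 2.13 in CD4 T cells.

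The tumor effect on Klrc1 differed between NK and CD4 T cells by the test of the difference itself. In a joint fit of the 6 types with enough cells, the log2 change in CD4 T cells minus that in NK cells was 3.63 ± 0.72 (SE, edgeR, adjusted p = 0.0115), the only member called, beside 1.19% of 9786 genes for that difference. For CD8 T cells minus NK cells it was 2.53 ± 0.59 (adjusted p = 0.0665), with 0.327% of genes called. No member was called for DETC, ILC2 or Treg minus NK cells, with 0.705%, 1.28% and 0.582% of genes called. At an unadjusted p under 0.05 there were 6, 1 and 2 members, beside 12.5%, 13.2% and 10.8% of all genes. The DETC sums in this fit included the mixed gate of tumor 1, so the 6 members are not counted as support. The differences for Klrd1 (2.90 ± 0.78, adjusted p = 0.0878) and Klrk1 (-1.93 ± 0.57, adjusted p = 0.134) between CD4 T and NK cells did not pass. Without control replicate 1 or without control replicate 2, no member was called. The calls made without a tumor replicate rested on a lone tumor library and are not counted as support.

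In Treg, Cd226 was the member called, 1 of 3 tested, beside 4.22% of 5170 genes. Cd226 passed the filter on low counts only through the tumor libraries, so its call is not counted as support. It was 0.196 and 0.183 UMIs per 10,000 in control Treg, from 5 UMIs each. In tumor Treg it was 0.495 and 1.13 (edgeR, log2 change 2.05 ± 0.56, adjusted p = 0.0479). The groups did not overlap, but the control values were within reach of the macrophage background of 0.0943 to 0.199. The call was lost with total UMIs in place of TMM (adjusted p = 0.0516), in DESeq2 (0.214), without doublet removal (0.0843), without cycling cells (0.0605) and without control replicate 1, control replicate 2 or tumor replicate 2 (0.118, 0.0736 and 0.350). Tigit, which competes with Cd226 for Pvr, was 1.41 and 0.66 in control and 1.31 and 0.97 in tumor Treg and did not pass.

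No member was called in DETC or ILC2. In DETC 9 members were tested and 5 had an unadjusted p under 0.05, beside 10.3% of all genes, of which 3 (0.0296%) were called. These fits held the mixed gate of tumor 1. DESeq2 called 1 member, Ncr1, whose highest value, 0.441, was in that gate. Ncr1 passed the filter on low counts only through the tumor libraries, so its call is not counted as support. Klre1 was 0.0427 and 0.0405 in control DETC and 2.72 and 0.102 in tumor DETC, so that the fitted change rested on the mixed gate of tumor 1, where 14 cells were left. Without tumor replicate 2, the mixed gate was the only tumor library left, so that fit is not counted as support. In tumor 2, whose 22 cells had Trdc at 15.7, Klrk1 was 3.58, Klrc1 1.79 and Klrd1 1.58, beside 2.96 and 3.12, 1.95 and 2.43, and 2.11 and 2.19 in control DETC. In ILC2 3 members were tested and edgeR called none, beside 11.3% of 5916 genes. DESeq2 called none of these members either. Klrk1 had an unadjusted p under 0.05, as did 27.8% of all genes in ILC2. Klrk1 was 1.46 and 1.03 in control and 0.419 and 0.865 in tumor ILC2 (adjusted p = 0.146), from 17 and 14 tumor cells.

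Of the 15 adaptor and proximal signaling genes, 1 of 15 tested passed in NK cells, 3 of 14 in CD8 T cells, 4 of 12 in CD4 T cells and 4 of 10 in ILC2, beside 6.32%, 9.35%, 9.95% and 11.3% of all genes. In NK cells Sh2d1a (SAP), the adaptor of SLAM family receptors, was called, at 0.44 and 0.46 in control and 0.94 and 1.22 in tumor (log2 change 1.19 ± 0.25, adjusted p = 0.0312). Tyrobp, at 11.1 and 9.09 against 10.4 and 8.86, and Hcst, at 3.81 and 3.01 against 2.89 and 1.69, did not pass in NK cells. In CD8 T cells Sh2d1a rose (log2 change 2.14 ± 0.25) and the lipid phosphatase gene Inpp5d and the scaffold gene Lat fell. In CD4 T cells Cd247 and Ptpn11 rose and Inpp5d and Sh2d2a fell. In ILC2 Cd247 rose and Zap70, Sh2d2a and Hcst fell, the last from 1.25 to 0.323 on average (adjusted p = 0.0442). None passed in Treg or DETC, where 3 of 10 and 5 of 15 had an unadjusted p under 0.05, beside 17.1% and 10.3% of all genes.

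Of the other lectin-like receptors of the complex, 6 of 8 listed were in the files, and 1 of the 4 tested in NK cells was called, Klrb1b, an inhibitory relative of Klrb1c. It was 1.63 and 2.13 in control and 0.99 and 0.93 in tumor NK cells (log2 change -1.02 ± 0.21, adjusted p = 0.0298), opposite in sign to Klrb1c. The counter-receptors Tigit, Cd96 and Pvrig were called in none of the types by edgeR, with 1 of 2 tested at an unadjusted p under 0.05 in NK cells, CD4 T cells and ILC2 each, beside 20%, 24.7% and 27.8% of all genes.

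Ligands were read in the cells that surround the lymphocytes. In macrophages, 8 of the 12 ligand genes in the files were tested and 1 was called, beside 1.13% of 11844 genes. Cdh1 (E-cadherin), the ligand of Klrg1, was 0.34 and 0.21 in control and 0.03 and 0.02 in tumor macrophages (log2 change -3.69 ± 0.41, adjusted p = 0.0195), and the call was lost without control replicate 1 or control replicate 2. Cdh1 also fell in NK cells, from 0.77 and 0.83 to 0.12 and 0.14 (edgeR, log2 change -2.69 ± 0.30, adjusted p = 0.00336). Trdc, a marker of DETC, was 0.145 and 0.120 in control and 0.000512 and 0.000786 in tumor macrophages. In NK cells Trdc went the other way, at 0.203 and 0.244 in control and 0.425 and 0.351 in tumor libraries. Tcrg-C1, another marker of DETC, stood in NK cells at 0.0427 and 0.0136 in control and 0.00904 and 0 in tumor libraries. These Tcrg-C1 values rested on at most 4 UMIs a library. Whether RNA carried over from other cells gave the Cdh1 values was not tested. H2-T23, which encodes the Qa-1 ligand of the NKG2 and CD94 pairs, was 1.99 and 1.97 in control and 3.09 and 2.57 in tumor macrophages and did not pass, whereas in CD4 T cells it rose (log2 change 0.88 ± 0.23, adjusted p = 0.0378). The Klrk1 ligand Raet1e was between 0.26 and 0.52 and the Cd226 ligand Pvr between 0.40 and 0.64 in macrophages, with overlapping groups. Langerhans cells of control skins carried Cdh1 at 1.81 and 2.30 and Pvr at 1.14 and 1.27, and the tumors left 1 and 6 such cells, too few for a comparison.

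Genes induced by tissue handling and stress had higher sums in tumors. The 6 dissociation genes together stood at 26.1 and 5.66 UMIs per 10,000 in control and 64.9 and 48.3 in tumor NK cells, where 2 of 6 were called higher (Jun and Atf3). In CD4 T cells they stood at 4.74 and 2.09 against 51.3 and 43.1, in CD8 T cells at 10.5 and 6.62 against 34.7 and 37.5 and in Treg at 2.04 and 2.56 against 17.2 and 56.3, with Hspa1a, Hspa1b and Jun called higher in all 3, whereas Fos and Egr1 were called lower in CD8 T cells. Hspa1a, Hspa1b and Jun in Treg, and Jun in CD4 T cells, passed the filter on low counts only through the tumor libraries. Those calls are therefore not counted as support. The part of the dissociation genes in the receptor results was not tested.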

How the data were processed

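Raw UMI counts per gene and cell were deposited for each library by the authors, who used droplet 3′ kits and Cell Ranger 7.1.0 by the submitters' processing notes (7.0.1 in the matrix headers) on mm10. No batch integration enters these counts. Cells with at least 100 genes, 1000 UMIs and a log10 gene to log10 UMI ratio of 0.8, and at most 15% mitochondrial UMIs, were kept as in the study's methods, and the highest scrublet scores (scanpy 1.11.5) were removed as doublets, between 40 and 229 cells a library. Types were gated on marker counts given in UMIs, with myeloid cells left out. Median depth of the cells used was 10264 to 13072 UMIs, and libraries with under 10 cells of a type were not used for it. The sums of each type in each library were compared, tumor against control, by the quasi-likelihood test of edgeR 4.0.16 under R 4.3.3, after filterByExpr and TMM scaling. Adjustment was by Benjamini-Hochberg over all genes at 0.05, and the SE was taken from the F value. A joint fit over 6 types with library as a term gave differences between types. On simulated data, the NK, CD8 T, CD4 T, Treg, ILC2 and DETC steps recovered 99%, 99%, 99%, 100%, 82% and 53.5% of 200 genes changed by 2 on the log2 scale. The changed genes were drawn from those above the median level, so these shares do not cover low members or smaller changes. Deviations of libraries with the same replicate number correlated between -0.0353 and 0.149 over 7 types, and no label says that a number marks a shared animal or day. All 10 members were named in every type, with fixed lists of adaptors, counter-receptors, other lectin-like receptors, ligands and marker genes. For each member the 3 most similar genes were computed and the leading one was printed. Members and lists were chosen with earlier results of these data known. An allele of the tumor line and 1 marker of circulating NK cells are not reported here. Alternatives were DESeq2 1.42.0, other filters, gates, doublet and cycling cell handling, a replicate block and each library left out.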

Additional observations from a re-analysis of the deposited data

Results flagged for a closer look

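The tumor effect on Klrc1 was flagged because it differed between 2 cell types by the test of the difference: the log2 change in CD4 T cells minus that in NK cells was 3.63 (edgeR, adjusted p = 0.0115). Klrc1 was lower in 2 of 2 tumor libraries in NK cells and higher in 2 of 2 in CD4 T cells.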

How the results depend on the processing

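The number of members called is given first as reported. The number of all genes called also changed between the runs below and is not given for each. These counts are therefore not read as a result about the members. In NK cells (3 called) it was 5 with no filter on low counts, and 0 in the cells without an ILC1 marker, chosen after seeing the data, which left 15 cells in each control library. In DETC (0 called) it was 1 with no filter, in DESeq2 (Ncr1, set aside above) and with the replicate block. In CD8 T cells (2 called) it was 4 with no filter and 1 without cycling cells. In Treg (1 called) it was 0 with total UMIs in place of TMM, in DESeq2, without doublet removal, with the stricter gate (which left Cd226 untested) and without cycling cells. In ILC2 (0 called) it was 1 with no filter and 1 without cycling cells, and the stricter gate left too few cells for a fit. The differences between types (1 called) were 2 without doublet removal, 3 with the stricter gate, 5 without cycling cells and 5 with the replicate block. Leaving out each library in turn, with a lone library assumed to vary like the other group, gave between 0 and 7 members in NK cells, 0 and 6 in DETC, 1 and 5 in CD8 T cells, 3 and 3 in CD4 T cells, 0 and 1 in Treg, 0 and 0 in ILC2, 0 and 12 differences, and 0 and 1 macrophage ligands. The 3 calls in NK cells were lost without either control library. In the NK cells without an ILC1 marker the Klrc1 share differed by -11.9 in place of -17.6 percentage points. No called change reversed in sign in any alternative run. The libraries share only a replicate number: the block gave 4 members in NK cells, 3 in CD8 T cells, 3 in CD4 T cells (Klri2 adjusted p = 0.0692) and 1 in Treg, and changed no other count beyond those given above. The causes of these changes were not tested.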
